A study of Mus musculus with 9 samples.

Results

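The enzymes that write and erase methylation on lysine 9 of histone H3 (H3K9) were followed through the differentiation of spermatogonial stem cells (SSCs) in vitro. The 10 genes were taken by name, and all 10 were found among the 46078 gene identifiers of the count data. They comprise the histone methyltransferases Ehmt1, Ehmt2, Suv39h1, Suv39h2, Setdb1 and Setdb2, the zinc finger protein Wiz, which binds the Ehmt1 and Ehmt2 enzymes, and the demethylases Kdm3a, Kdm4a and Kdm4c. All of the samples were EGFP-SSCs, a single mouse SSC line of WT genotype that carries green fluorescent protein and was grown on mitomycin C-exposed mouse embryonic fibroblasts in medium with GDNF, basic fibroblast growth factor and epidermal growth factor. The 0 h group came from this normal culture. The 24 h and 48 h groups were differentiated for those times by co-culture with somatic cells of busulfan-exposed testes of mice in the first week after birth, in medium containing KSR, BMP-4/7, retinoic acid, activin A, testosterone, FSH and BPE. Fluorescent cells were recovered by flow cytometry, and poly-A RNA of 3 biological replicates per time was sequenced. The replicates belong to 1 line, so the p-values below measure the spread between these samples and not between lines or animals.

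H3K9 methylation is a mark of silent chromatin that is laid down in steps. GLP (Ehmt1) and G9a (Ehmt2) form a heterodimer that places most mono- and dimethylation in euchromatin, and Wiz helps to hold that complex on chromatin. Suv39h1 and Suv39h2 make the trimethylated form at pericentric repeats, Setdb1 makes it at retroelements and at genes bound by KRAB zinc finger proteins, and Setdb2 is a less studied relative of Setdb1. Kdm3a removes mono- and dimethylation, and Kdm4a and Kdm4c remove di- and trimethylation of H3K9. In the testis, loss of G9a in germ cells arrests meiosis, the Suv39h pair is needed for the pairing of chromosomes in spermatocytes, and Kdm3a is needed for the packaging of sperm chromatin. The comparisons ask how the mRNA of these enzymes stood at each time of differentiation. The study measured the H3K9me2 mark by mass spectrometry and Western blot, and those data were not analysed here. From the same RNA-seq it already reported a rise of Ehmt1 and Ehmt2 from 0 h to 48 h, alongside a rise of the mark.

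Ehmt2 and Wiz were called higher at 24 h and all 3 genes of the Ehmt complex at 48 h, and the DNA before their transcription starts is shown for that reason. Each window holds the 250 bases before the RefSeq transcription start nearest to the 5′ end of the annotated gene, read 5′ to 3′ on the gene's own strand. Capitals mark the GC box, GGGCGG or its reverse complement, the core of the sites that Sp1 and related factors bind.
Ehmt1, GRCm38.p6, chr2:24919610-24919859, minus strand: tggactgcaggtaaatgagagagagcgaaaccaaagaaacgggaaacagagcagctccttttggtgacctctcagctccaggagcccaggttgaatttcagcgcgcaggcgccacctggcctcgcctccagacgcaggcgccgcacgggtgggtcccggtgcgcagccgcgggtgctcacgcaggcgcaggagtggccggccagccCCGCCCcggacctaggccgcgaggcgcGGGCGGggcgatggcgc
Ehmt2, GRCm38.p6, chr17:34898224-34898473, plus strand: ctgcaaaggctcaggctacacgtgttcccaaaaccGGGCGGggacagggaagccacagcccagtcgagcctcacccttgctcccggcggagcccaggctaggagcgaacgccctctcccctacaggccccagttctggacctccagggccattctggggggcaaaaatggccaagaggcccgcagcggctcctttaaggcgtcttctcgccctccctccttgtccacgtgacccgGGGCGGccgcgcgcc
Wiz, GRCm38.p6, chr17:32389407-32389656, minus strand: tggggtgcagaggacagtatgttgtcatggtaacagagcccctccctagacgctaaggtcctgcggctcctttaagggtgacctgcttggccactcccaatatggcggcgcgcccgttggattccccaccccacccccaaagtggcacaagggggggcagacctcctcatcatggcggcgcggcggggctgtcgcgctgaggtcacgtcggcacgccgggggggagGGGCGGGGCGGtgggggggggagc
Every one of these windows held 2 GC boxes. So did the window of Kdm3a, while that of Suv39h2 held 3 and that of Kdm4c, also called higher at 48 h, held 0. A GC box was present in 7 of the 10 windows of the whole set, against 32.7% of the 32851 mouse promoter windows of the same length. The GC content was 69.2% for Ehmt1, 67.6% for Ehmt2 and 68.4% for Wiz, above the median of 52.4% over all windows. In the rest of the set it ran from 39.6% for Kdm4c to 69.6% for Suv39h2. The Ehmt2 window also held 2 matches to the E-box CACGTG, a motif in 6.02% of all windows and in none of the other 9. The sequence AGGTCA, the core element of nuclear receptors such as those for retinoic acid, occurred once before Ehmt1, at 2 places before Wiz and once before Kdm4c, with none in the Ehmt2 window and a match in 14% of all windows. Of the other motifs searched, also on both strands, the CCAAT box was in 6 of the 10 windows (33.8% of all) and the ETS core CGGAAG in 2 (13.6%), and the E2F sites TTTCCCGC and TTTGGCGC in 0 (0.895% and 0.417%). Counts per gene do not say which start was used, and a match to these letters is not evidence that a factor bound there.

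The 9 libraries held 16825251 to 22201892 counts, and replicates differed by more than sampling noise (chi-square per degree of freedom of 7.13 to 81.4 over the 9 replicate pairs). The 0 h libraries spread along the GC content of genes. Among 16810 genes, the log2 difference between 0 h replicate 3 and replicate 1 had a median of -0.76 in genes under 45.1% GC and 0.46 in genes above 54.6% GC, the limits of the lowest and the highest quartile. For the marker calls below, the shares over all genes tested were 11.4% higher and 14.2% lower at 24 h, and 13.0% and 18.5% at 48 h. Germ cell genes were present throughout. The 7 listed summed to 2381 to 3254 CPM (counts relative to the library size after TMM scaling) at 0 h, 1890 to 2067 CPM at 24 h and 1805 to 1963 CPM at 48 h, where 1 rose and 2 fell to 24 h and 0 rose and 3 fell to 48 h. Among them, Ddx4 had means of 355.6, 361.5 and 379.6 CPM and was not called, while the GDNF receptor genes of stem cells fell, Gfra1 from 229.7 to 36.6 and 17.9 CPM and Ret from 642.7 to 47.4 and 34.2 CPM. These were the largest falls in mean CPM of the list. Sall4 was called higher at 24 h (means 212.3, 318.5 and 247.8 CPM) and Zbtb16 lower at 48 h (301.8, 269.8 and 202.5 CPM). Dazl and Mael were not called. Markers of somatic cells were not absent. The summed level of 6 stromal genes ran from 259.8 to 351.8 CPM at 0 h, from 2145 to 2418 CPM at 24 h and from 2774 to 3035 CPM at 48 h. Of these 6, 4 were called higher at 24 h and 4 at 48 h. Most of the sum was Col1a1, Col1a2 and Col3a1 (means 1119, 700.5 and 356.6 CPM at 24 h). Dcn (means 18.6, 29.7 and 48.2 CPM) was called higher at 48 h but not at 24 h. Pdgfra (27.2, 44.9 and 36.0 CPM) was called higher at 24 h but not at 48 h, and Lum (1.29, 1.19 and 2.60 CPM) at neither. The 5 myoid genes summed to 13.2 to 15.6 CPM at 0 h, 147.3 to 204.2 CPM at 24 h and 260.1 to 311.2 CPM at 48 h, with 4 of the 5 called higher at 24 h and 4 at 48 h. The 6 Sertoli genes summed to 20.0 to 23.7, 58.0 to 93.1 and 91.4 to 105.7 CPM (5 of 6 called higher and Sox9 called lower at 24 h, and 5 called higher at 48 h), and the 5 Leydig genes to 4.43 to 6.77, 25.2 to 38.5 and 25.6 to 31.9 CPM (3 tested, of which 2 were called higher at 24 h and 3 at 48 h). The Leydig genes Hsd3b1 and Insl3 had 0 counts in every 0 h library. The sum of the 3 endothelial genes went the other way, from 42.0 to 46.3 CPM down to 11.6 to 14.0 and 7.90 to 8.82 CPM. Pecam1 and Kdr were called lower at 24 h and 48 h, and Cdh5 was not called against 0 h (means 4.094, 5.127 and 2.965 CPM). The sum of the 3 macrophage genes also fell, from 15.4 to 16.7 CPM to 5.65 to 9.31 and 5.38 to 7.36 CPM. Most of it was Cd68 (means 15.6, 5.82 and 5.42 CPM), which was called lower at both times. Csf1r was called higher at 24 h (means 0.29, 1.09 and 0.65 CPM), and Adgre1, not tested, had means of 0.11, 0.39 and 0.13 CPM. The part of these markers in the results on the 10 genes was not tested, and in bulk samples fewer cells of a type and less RNA per cell cannot be told apart.

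Ehmt2 was the most abundant of the 10 genes at every time and had the largest change from 0 h to 24 h and to 48 h. Levels between genes were compared per length, as FPKM (CPM divided by the kilobases of exon in the gene), and levels of a single gene between libraries as CPM. At 0 h, Ehmt2 stood at 69.2 ± 18.0 FPKM (SD, n = 3), Setdb1 followed at 33.4 ± 1.66 FPKM, and neither overlapped the gene next in order. Kdm3a at 20.6 ± 7.18, Suv39h2 at 19.0 ± 4.14, Suv39h1 at 18.5 ± 1.01 and Ehmt1 at 17.4 ± 0.34 FPKM came next, and each of these overlapped its neighbour. Wiz at 11.7 ± 2.12, Kdm4a at 9.28 ± 0.08 and Setdb2 at 8.14 ± 2.38 FPKM also formed an overlapping run. Kdm4c was the lowest, at 2.20 ± 0.71 FPKM. By 24 h Ehmt2 reached 174.1 ± 9.59 FPKM and by 48 h 197.4 ± 11.7 FPKM, while Setdb1 stayed second at 33.8 ± 1.28 and 32.9 ± 1.94 FPKM. Ehmt1 moved from the sixth to the third place, at 21.7 ± 1.43 and 23.9 ± 0.69 FPKM. Kdm3a moved from the third to the seventh place, at 13.5 ± 0.96 and 14.4 ± 1.12 FPKM. At 24 h Ehmt1, Suv39h2, Wiz and Suv39h1 overlapped as a run (17.8 to 21.7 FPKM on average), and at 48 h the run was Suv39h1, Wiz, Kdm3a and Setdb2 (12.5 to 18.2 FPKM). Kdm4a and Kdm4c were the 2 lowest at both later times, whereas at 0 h Setdb2 stood below Kdm4a. The middle of this order depends on the length used. Over the longest transcript in place of all exons, Suv39h1 stood just above Ehmt1 at 24 h (30.0 against 29.6 FPKM), which put Ehmt1 in the fifth, the fourth and the third place at the 3 times, and Kdm3a stood above Suv39h2 at 24 h (22.9 against 20.5 FPKM). Among 16888 genes ordered by mean CPM, Ehmt2 took rank 366 at 0 h, 38 at 24 h and 34 at 48 h.

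**Figure D1:**
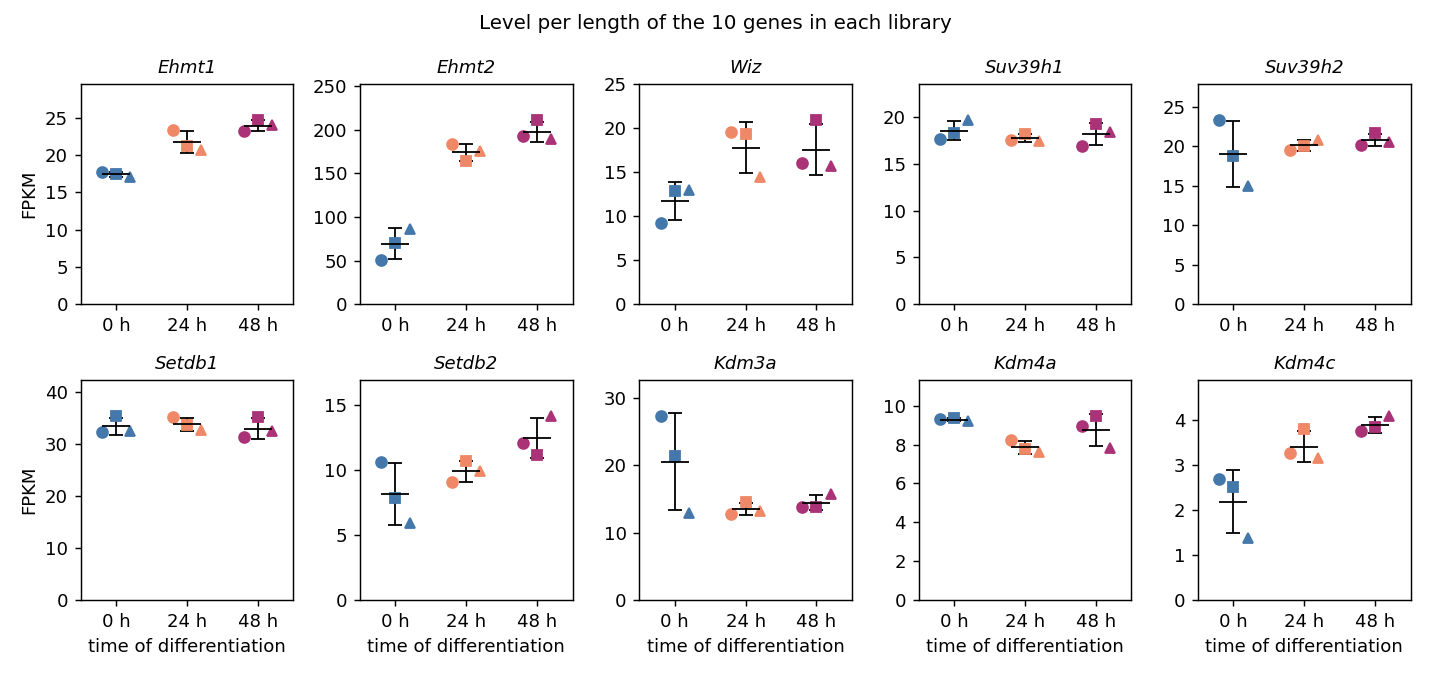
Level per length (FPKM, linear axis from 0) of each of the 10 genes in the 9 libraries, against the time of differentiation. Circles, squares and triangles are replicates 1, 2 and 3, and the horizontal line with bars is the mean ± SD (n = 3). Ehmt2 went from 50.7 to 86.6 FPKM at 0 h to 164.0 to 210.7 FPKM at the later times. The spread of Ehmt2, Kdm3a, Suv39h2, Setdb2 and Kdm4c was widest at 0 h.

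From 0 h to 24 h, 2 of the 10 genes were called higher (Ehmt2 and Wiz) and 0 were called lower by the quasi-likelihood test of edgeR at an adjusted p of up to 0.05, against 25.5% of the 17592 genes tested called in either direction, 11.4% higher and 14.2% lower. Without adjustment, 4 of the 10 were higher and 1 was lower at a p under 0.05. DESeq2 also called 2 higher and 0 lower, and over all genes it called 4715 of 20404, 43.5% of them higher. From 0 h to 48 h, 4 were called higher (Ehmt1, Ehmt2, Wiz and Kdm4c) and 0 lower, against 31.6% of 17755 genes called, 13.0% higher and 18.5% lower. The unadjusted counts were then 5 higher and 0 lower. DESeq2 called 5 higher and 0 lower, and over all genes 5963 of 21685, 43% of them higher. From 24 h to 48 h, 0 of the 10 were called by edgeR in either direction, against 21.3% of 17499 genes (8.61% higher and 12.7% lower). Before adjustment 3 were higher and 0 lower. DESeq2 called 2 higher, and over all genes 3617 of 15875, 46.9% of them higher. The share of all genes at an unadjusted p under 0.05 was not computed, so the unadjusted counts cannot be set against a background. Of all genes called, 44.5% were higher at 24 h and 41.2% at 48 h, and with library size alone these shares were 57.1% and 52.8%, as the median of all genes then moved up by 0.11 in both comparisons. The median log2 fold change of the 10 genes was 0.18, 0.30 and 0.12 in the 3 comparisons, beside 0.01, 0.02 and -0.00 over all genes tested. The libraries of both groups did not overlap for 5, 5 and 2 of the 10 genes, against 43.1%, 47.7% and 38.5% of all genes. The 24 h and 48 h groups were compared with the same 0 h libraries, so these 2 comparisons are not independent.

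**Figure D2:**
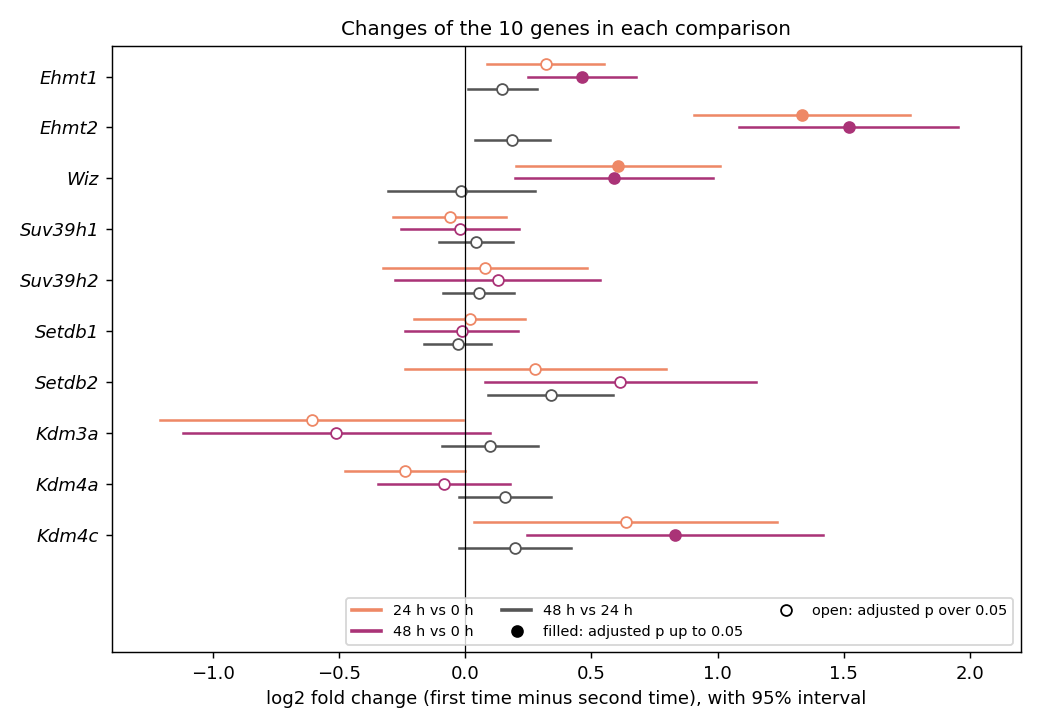
Log2 fold change of each gene (horizontal axis) with its 95% interval, for 24 h against 0 h, 48 h against 0 h and 48 h against 24 h. Filled points passed an adjusted p of 0.05 with edgeR, and they are Ehmt2 and Wiz at 24 h and Ehmt1, Ehmt2, Wiz and Kdm4c at 48 h. The intervals of Suv39h1, Suv39h2, Setdb1 and Kdm4a hold 0 in all 3 comparisons.

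Ehmt2 (ENSMUSG00000013787, GRCm38 chr17:34898469-34914052) encodes G9a, the enzyme of the heterodimer that is commonly held to be its main catalyst. Its level was 278.4, 386.0 and 475.5 CPM in the 0 h libraries. The 24 h libraries held 1005, 900.1 and 962.2 CPM, and the 48 h libraries 1056, 1156 and 1037 CPM. Every library of 24 h and 48 h was above every library of 0 h, and the 48 h libraries were all above those of 24 h. Ehmt2 rose 2.52-fold to 24 h (log2 fold change 1.34, SE 0.18, 95% interval 0.91 to 1.76, adjusted p = 0.00187) and 2.87-fold to 48 h (1.52, SE 0.18, interval 1.09 to 1.95, adjusted p = 0.000891). Both rises were called in all 15 alternative settings, with log2 fold changes of 1.16 to 1.54 at 24 h and 1.34 to 1.76 at 48 h. Between 24 h and 48 h the log2 fold change was 0.19 (SE 0.07, interval 0.04 to 0.33), and it did not pass the adjustment (adjusted p = 0.0694). When the fit took account of GC content and transcript length through offsets, this last value was 0.43 and passed (adjusted p = 0.00143), and DESeq2 gave 0.20 (adjusted p = 0.0329). The 0 h libraries differed 1.71-fold between replicates 3 and 1, the widest rise in that pair among the 10 genes, and the Ehmt2 transcript had the highest GC content of the set, at 60.8%.

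Ehmt1 (ENSMUSG00000036893, chr2:24789928-24919614) encodes GLP, the other subunit of the heterodimer. Its 0 h libraries lay close together, at 143.8, 141.7 and 138.4 CPM. The values were 189.4, 172.4 and 167.1 CPM at 24 h, and 188.6, 199.8 and 194.4 CPM at 48 h. All libraries of the later times exceeded all those of 0 h. The rise of 1.38-fold to 48 h passed the test (log2 fold change 0.46, SE 0.09, 95% interval 0.25 to 0.68, edgeR adjusted p = 0.00742), and it did so in all 15 alternatives. The 24 h value of 1.25-fold (log2 fold change 0.32, SE 0.10, interval 0.09 to 0.55) lay just beyond the threshold, at an adjusted p of 0.0534. It passed in 7 of the 15 alternatives, among them the GC and length offsets (0.34, adjusted p = 0.0105) and the fits without 0 h replicate 1 (0.34, 0.0397) or replicate 3 (0.32, 0.0374). From 24 h to 48 h the log2 fold change was 0.15 (interval 0.01 to 0.29, adjusted p = 0.116).

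Wiz (ENSMUSG00000024050, chr17:32354055-32389439) links the heterodimer to DNA through its zinc fingers. The gene stood at 85.5, 119.1 and 119.6 CPM at 0 h, at 181.0, 178.0 and 133.5 CPM at 24 h, and at 147.8, 192.7 and 145.3 CPM at 48 h. The groups did not overlap with 0 h, although 24 h replicate 3 lay close to the top of the 0 h range. Wiz rose 1.52-fold to 24 h (log2 fold change 0.61, SE 0.17, 95% interval 0.20 to 1.01, edgeR adjusted p = 0.0386) and 1.50-fold to 48 h (0.59, SE 0.17, interval 0.20 to 0.98, adjusted p = 0.0331). The 24 h call was lost without 0 h replicate 1 (0.47, adjusted p = 0.0511), 0 h replicate 2 (0.67, 0.0863), 24 h replicate 1 (0.53, 0.146) or 24 h replicate 2 (0.54, 0.141). The 48 h call was lost without 0 h replicate 2 (0.66, 0.0626) or any of the 48 h replicates (0.45 to 0.66, adjusted p from 0.0637 to 0.12). Between 24 h and 48 h the difference was -0.01 (interval -0.30 to 0.27). Of the Wiz exon bases, 22.7% also lie in other genes, 2040 of them in the lincRNA Gm26858 on the opposite strand. That lincRNA had 0 counts in each library, and the library protocol describes no step that marks strand, so reads of the gene and of the lincRNA cannot be told apart.

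The ratio of Ehmt2 to Ehmt1 within a library does not depend on the scaling between libraries. Their longest transcripts differ in GC content (60.8% and 51.2%), along which the 0 h libraries spread, and its part in the ratio was not tested. Per length, Ehmt2 exceeded Ehmt1 by 2.86-, 4.03- and 5.08-fold at 0 h, by 7.85-, 7.72- and 8.51-fold at 24 h and by 8.28-, 8.56- and 7.89-fold at 48 h. The mean log2 ratio was 1.96 ± 0.42, 3.00 ± 0.08 and 3.04 ± 0.06 at the 3 times (SD, n = 3). It differed from 0 h by 1.05 at 24 h and by 1.09 at 48 h, with no overlap between groups. With 3 libraries against 3, the two-sided exact permutation test cannot give a p below 0.1, and both differences had that p = 0.1 (adjusted p = 0.24 over the 12 ratios compared). From 24 h to 48 h the ratio changed by 0.04 (exact permutation p = 0.5).

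Setdb1 (ENSMUSG00000015697, chr3:95323525-95357202) and the Suv39h pair were not called in any comparison or alternative setting. Setdb1, the methyltransferase that Trim28 brings to retroelements, was at 221.4, 241.8 and 222.9 CPM at 0 h, 240.8, 230.2 and 223.3 CPM at 24 h and 214.7, 240.5 and 222.0 CPM at 48 h. Its groups overlapped in each comparison. The 95% interval of its log2 fold change was -0.20 to 0.24 to 24 h and -0.24 to 0.21 to 48 h. Suv39h1 (ENSMUSG00000039231, chrX:8061171-8074760) gave 93.3, 96.2 and 103.6 CPM at 0 h, 92.8, 96.2 and 91.7 CPM at 24 h and 89.4, 101.3 and 97.3 CPM at 48 h. The groups again overlapped, and the log2 fold changes were -0.06 (interval -0.29 to 0.16) and -0.02 (-0.25 to 0.21) against 0 h, whose sign turned under other settings. Of its exon bases 14.6% are shared with the antisense gene Gm14820, which had 6 to 14 counts per library. Suv39h2 (ENSMUSG00000026646, chr2:3455815-3475031), the member of the pair that is known as testis-enriched, was at 102.6, 82.8 and 66.2 CPM at 0 h. Its later libraries were closer together, at 85.8, 88.3 and 91.8 CPM at 24 h and 88.9, 95.4 and 90.4 CPM at 48 h, inside the 0 h range. The log2 fold changes were 0.08 (interval -0.33 to 0.48) and 0.13 (-0.28 to 0.53). The log2 ratio of Suv39h2 to Suv39h1 differed from 0 h by 0.16 at 24 h and 0.18 at 48 h (exact permutation p = 0.7 for both), and its 0 h SD was 0.39 against 0.07 and 0.05 later.

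Setdb2 (ENSMUSG00000071350, chr14:59402009-59440884) was lower than Setdb1 per length in every library. It measured 43.1, 31.9 and 23.9 CPM at 0 h, 36.6, 43.3 and 40.2 CPM at 24 h and 48.8, 45.3 and 57.2 CPM at 48 h. The 48 h libraries were above all others, but none of the comparisons passed the adjustment with edgeR. The log2 fold change was 0.28 (SE 0.22, adjusted p = 0.42) at 24 h, 0.61 (SE 0.23, 95% interval 0.08 to 1.15, adjusted p = 0.0803) at 48 h, and 0.34 (SE 0.11, interval 0.09 to 0.59, adjusted p = 0.056) from 24 h to 48 h. The 48 h value passed in 7 of 15 alternatives, including DESeq2 (0.63, adjusted p = 0.0415), the fit without 0 h replicate 1 (0.87, 0.0073) and the GC and length offsets (0.46, 0.00604), and the value from 24 h to 48 h passed in 6, including DESeq2 (0.35, 0.0183) and the fit without 48 h replicate 2 (0.43, 0.0145). Without 0 h replicate 1 the 24 h value was also called (0.53, adjusted p = 0.0411). The log2 ratio of Setdb2 to Setdb1 was -1.77 at 24 h and -1.41 at 48 h without overlap, with the smallest exact permutation p the design allows (0.1, adjusted p = 0.24). The groups all but touched, with 24 h replicate 2 at -1.65 and 48 h replicate 2 at -1.649. Against 0 h, at -2.07, both later groups overlapped (exact permutation p = 0.4 at 24 h and 0.2 at 48 h). The longest transcripts of Setdb2 and Setdb1 hold 42.6% and 48.3% GC, and the part of GC content in this ratio was not tested.

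The demethylases did not move as a group. Kdm4c (ENSMUSG00000028397, chr4:74242497-74405860) removes di- and trimethylation, and it was the only demethylase of the set that edgeR called without offsets and with all libraries of a comparison. It was at 15.7, 14.6 and 8.06 CPM at 0 h, at 19.1, 22.2 and 18.4 CPM at 24 h and at 21.9, 22.4 and 23.8 CPM at 48 h. Both later groups lay above all 0 h libraries. Kdm4c rose 1.78-fold to 48 h (log2 fold change 0.83, SE 0.25, 95% interval 0.24 to 1.42, edgeR adjusted p = 0.0408). That call was lost without 0 h replicate 2 (0.94, adjusted p = 0.0743) and without any of the 48 h replicates (0.80 to 0.86, adjusted p from 0.103 to 0.121). At 24 h the log2 fold change was 0.64 (interval 0.04 to 1.24, adjusted p = 0.116), which passed with the GC and length offsets (0.63, 0.00892) and without 0 h replicate 1 (0.82, 0.0475). Counts of Kdm4c ran from 160 to 508 per library, the lowest of the set.

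Kdm4a (ENSMUSG00000033326, chr4:118136957-118180043), the close relative of Kdm4c, was at 53.8, 54.1 and 53.2 CPM at 0 h, at 47.6, 45.0 and 43.9 CPM at 24 h and at 51.6, 54.6 and 45.3 CPM at 48 h. The 24 h libraries were all below the 0 h libraries, but the difference did not pass the adjustment (log2 fold change -0.24, SE 0.10, 95% interval -0.48 to 0.00, edgeR adjusted p = 0.136), and at 48 h the groups overlapped (-0.08, adjusted p = 0.623). From 24 h to 48 h it was 0.16 (adjusted p = 0.194), a value called with the GC and length offsets (0.27, adjusted p = 0.0264). Relative to Kdm4a, Kdm4c was at 0.29, 0.27 and 0.15 per length at 0 h, at 0.40, 0.49 and 0.42 at 24 h and at 0.42, 0.41 and 0.52 at 48 h. The longest transcripts of Kdm4c and Kdm4a hold 43.7% and 53.6% GC, and the part of GC content in this ratio was not tested. The log2 ratio was higher by 0.93 and 0.98 than at 0 h with no overlap, each at the smallest exact permutation p of 0.1 (adjusted p = 0.24). It changed by 0.05 from 24 h to 48 h (exact permutation p = 0.6).

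Kdm3a (ENSMUSG00000053470, chr6:71588972-71632990), the demethylase of mono- and dimethylated H3K9, showed the widest spread at 0 h relative to its mean. Its libraries held 224.2, 176.2 and 106.7 CPM at 0 h, 104.9, 120.1 and 109.1 CPM at 24 h and 113.6, 113.3 and 129.3 CPM at 48 h. A pair of 0 h libraries stood above all later ones, while 0 h replicate 3 lay among them. The log2 fold change was -0.61 to 24 h (SE 0.26, 95% interval -1.21 to -0.01, edgeR adjusted p = 0.131) and -0.51 to 48 h (SE 0.26, interval -1.12 to 0.10, adjusted p = 0.181), and neither was called. Without 0 h replicate 3 both were called lower, at -0.83 (adjusted p = 0.00315) and -0.73 (adjusted p = 0.00579). With the GC and length offsets on all 6 libraries they were also called lower, at -0.58 (adjusted p = 0.016) and -0.56 (adjusted p = 0.0176).

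The spread at 0 h followed the GC content of the transcripts. The log2 CPM of 0 h replicate 3 minus that of replicate 1 was 0.77 for Ehmt2 and 0.48 for Wiz, whose longest transcripts hold 60.8% and 56.8% GC. It lay between -0.06 and 0.15 for Kdm4a, Ehmt1, Suv39h1 and Setdb1, at 48.3% to 53.6% GC. In the 4 transcripts with 42.6% to 45.5% GC it was -1.07 for Kdm3a, -0.95 for Kdm4c, -0.85 for Setdb2 and -0.63 for Suv39h2. Spearman's rho between GC content and this difference was 0.794 over the 10 genes and 0.64 over 16810 genes. Genes of 1 pair of libraries are not independent, and no p is given. The GC content of the counts was 48.7%, 49.7% and 50.4% in the 0 h libraries, 49.5% to 50.0% at 24 h and 49.0% to 49.8% at 48 h.

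**Figure D3:**
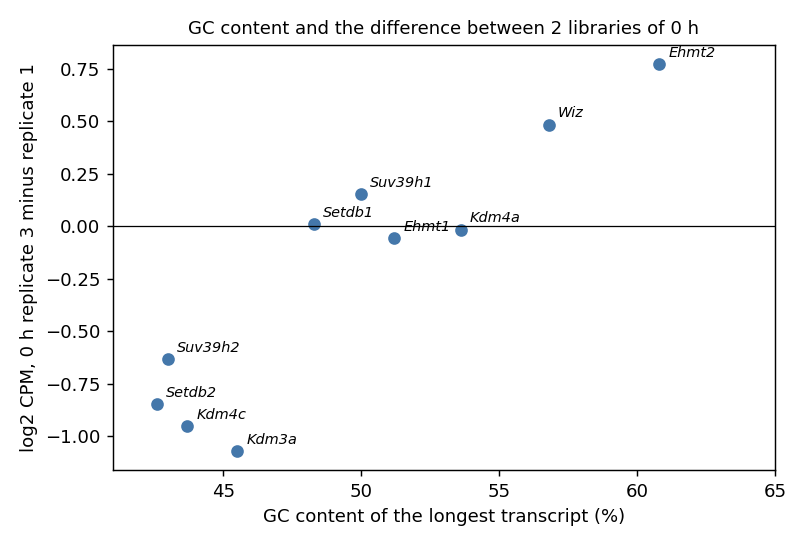
Difference in log2 CPM between 0 h replicate 3 and 0 h replicate 1 (vertical axis) against the GC content of the longest transcript in percent (horizontal axis), with 1 point per gene. The 4 genes under 46% GC lie at -0.63 or lower, and Wiz and Ehmt2, above 56%, lie at 0.48 and 0.77.

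**Figure D4:**
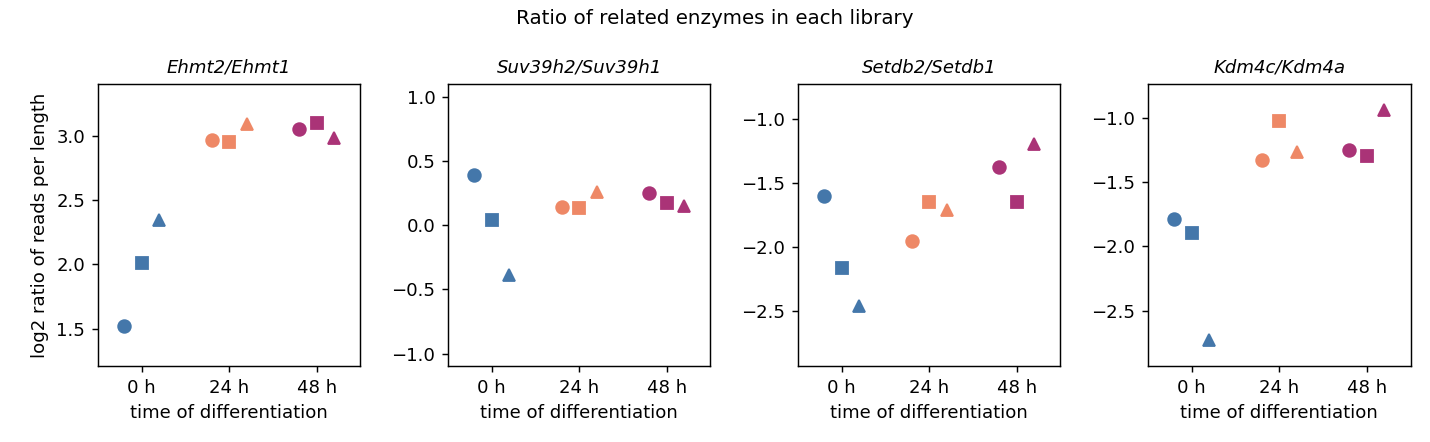
Log2 ratio of reads per length between related enzymes in each library (vertical axes, each spanning the same 2.2 log2 units) against the time of differentiation. Circles, squares and triangles are replicates 1, 2 and 3. Ehmt2 over Ehmt1 and Kdm4c over Kdm4a lie higher at 24 h and 48 h than in all 0 h libraries, whereas Suv39h2 over Suv39h1 overlaps between times.

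Summed per length, mRNA of the 6 methyltransferases was 165.7 ± 12.4 FPKM at 0 h, 277.4 ± 9.97 FPKM at 24 h and 305.7 ± 14.5 FPKM at 48 h (SD, n = 3). Ehmt2 made up 33.3% to 49.0% of that sum at 0 h, 61.2% to 63.6% at 24 h and 63.3% to 65.3% at 48 h. Without Ehmt2 the remaining 5 summed to 96.5 ± 5.87, 103.2 ± 1.72 and 108.3 ± 4.11 FPKM, so most of the added mRNA was that of a single gene. The 3 demethylases summed to 32.0 ± 7.93 FPKM at 0 h, with 39.3, 33.3 and 23.6 FPKM in the replicates, and to 24.8 ± 1.20 and 27.1 ± 0.58 FPKM later, inside the 0 h range. The methyltransferase sum was 3.88 to 7.51 times the demethylase sum at 0 h, 10.2 to 11.9 times at 24 h and 10.8 to 11.9 times at 48 h. These sums were not tested, and mRNA levels say nothing of protein or of enzyme activity.

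The other enzymes known or proposed to act on H3K9 comprised 11 genes, of which 10 were tested. Mecom, with 3 to 15 counts per library, did not pass the expression filter. The calls were 1 up and 2 down to 24 h, the same numbers to 48 h, and 0 up and 1 down from 24 h to 48 h, where 25.5%, 31.6% and 21.3% of all genes tested were called, with medians of 0.02, 0.24 and -0.03 on the log2 scale. The 2 that fell were Kdm4b, another relative of Kdm4a, and Phf2, a PHD finger protein of the demethylase family. Kdm4b was at 39.2, 46.7 and 48.9 CPM at 0 h, 21.8, 22.5 and 23.1 CPM at 24 h and 21.3, 22.8 and 18.3 CPM at 48 h. The log2 differences were -0.998 (SE 0.12, edgeR adjusted p = 0.000967) and -1.10 (SE 0.13, adjusted p = 0.00084), so Kdm4b fell at both times, whereas Kdm4c was called higher at 48 h. Phf2 was at 19.9 to 23.2 CPM at 0 h, 9.65 to 11.2 CPM at 24 h and 7.07 to 7.99 CPM at 48 h, which makes -1.06 and -1.49 on the log2 scale against 0 h and a further -0.43 from 24 h to 48 h (adjusted p = 0.00142, 0.000223 and 0.0362). The gene called higher was Kdm1a, an amine oxidase that acts on H3K4 and, with some partners, on H3K9. It went from a mean of 209.3 to 278.2 and 268.8 CPM (log2 fold changes 0.41 and 0.37, adjusted p = 0.0242 and 0.0318).

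Of 14 recruiters, partners and readers of H3K9 methylation, all of which were tested, 0 rose and 3 fell to 24 h, 1 rose and 3 fell to 48 h, and 1 rose and 4 fell from 24 h to 48 h. Over all genes tested, 25.5%, 31.6% and 21.3% were called in these comparisons, 14.2%, 18.5% and 12.7% lower. Their median log2 fold changes were -0.12, 0.03 and 0.07. The genes called lower at both times were Uhrf1, Pphln1 and Cdyl2. Uhrf1, a reader of H3K9 methylation that directs maintenance DNA methylation, fell from 921.5, 994.0 and 1152 CPM at 0 h to 565.0 to 619.3 CPM at 24 h and 402.3 to 500.9 CPM at 48 h (log2 fold changes -0.79 and -1.19, adjusted p = 0.00232 and 0.000502). Pphln1, a subunit of the HUSH complex that silences integrated elements together with Setdb1, went from 185.1 to 275.4 CPM at 0 h to 104.1 to 113.4 CPM and 86.8 to 93.6 CPM (-1.06 and -1.32, adjusted p = 0.0033 and 0.00104). Cdyl2, a chromodomain protein, went from a mean of 52.6 to 38.2 and 25.6 CPM (-0.46 and -1.03, adjusted p = 0.0367 and 0.000878). The gene called higher was Atf7ip, a partner of Setdb1 that stabilises it, with a log2 fold change of 0.37 at 48 h (adjusted p = 0.0293) and 0.28 from 24 h to 48 h (adjusted p = 0.0357).

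Beside the genes above, 20 proliferation genes were counted. Of these, 0 rose and 3 fell to 24 h, 1 rose and 6 fell to 48 h, and 2 rose and 4 fell between the later times, beside the same 25.5%, 31.6% and 21.3% of all genes called. Their medians were -0.15, -0.20 and -0.02. The 3 that fell to 24 h were Cdk1, Ccne1 and Rrm2, by -0.84, -0.54 and -0.84 on the log2 scale. The summed level of the 20 genes was 4127 to 4665 CPM at 0 h, 3919 to 4122 CPM at 24 h and 3884 to 4245 CPM at 48 h. The part of proliferation in the results above was not tested.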

How the data were processed

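RNA-seq was available for 9 libraries of EGFP-SSCs, 3 at each of 0 h, 24 h and 48 h. The authors deposited counts of reads per Ensembl gene, not normalized. The submitters' processing notes name fastp, HISAT2 and featureCounts and the build GRCm38, and versions, annotation release and strand setting are not given in the sources used here. Symbols, positions and exons came from GENCODE M21 (GRCm38), which held 45229 of the 46078 identifiers, and promoter windows from RefSeq GRCm38.p6, which held all 10 genes. The 10 genes and all lists were chosen with earlier results of these data known. Named in the text are the 10 genes and, of the lists of other H3K9 enzymes, of partners and readers and of proliferation, the genes called in any comparison with an absolute log2 fold change of at least 0.5. Kdm1a and Atf7ip, each the single gene of its list called higher, and Mecom were named after their values were seen. Cell type markers are given by the summed CPM of each list and by counts of calls, and the markers named as examples were also chosen after their values were seen.

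Each comparison used the 6 libraries of its groups, filterByExpr, TMM and edgeR 4.0.16 (R 4.3.3) with its quasi-likelihood test, two-sided, and the Benjamini-Hochberg correction ran over all genes tested at a threshold of 0.05. CPM and FPKM (union of exons) were computed from the counts, with TMM factors over the 9 libraries. Ratios within a library used a pseudocount of 0.5 and two-sided exact permutation tests. Overlaps with other genes were found with M21 and BLAST 2.17.0. The alternatives tried were a fit of all 9 libraries together, a replicate block, DESeq2 1.42.0, its size factors or the plain library size in edgeR, dropping the expression filter, a minimum of 10 counts in each library, GC and length offsets (natural splines, 5 and 4 degrees of freedom, with and without the block), and leaving out each library. The procedure was tested on counts simulated for 24 h against 0 h. Of planted log2 changes of 2 and of 3, in either direction, 79 of 100 and 93 of 100 were called, with 17 false calls. With no change planted there was 1 false call among 17212 genes. The planted changes were larger than those of the 10 genes, so the recovery of smaller changes was not tested. Plots used Python 3.11.15 and matplotlib 3.10.9.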

Additional observations from a re-analysis of the deposited data

How the results depend on the processing

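Of 450 recomputed log2 fold changes of the 10 genes (15 settings in each of 3 comparisons), 371 kept their direction and their side of the threshold, and Ehmt2 at 24 h and 48 h and Ehmt1 at 48 h were called in all 15 settings. Of the 10 genes, the number called from 0 h to 24 h was 2, and it was 1 with the replicate block, 5 with the GC and length offsets and 5 with these offsets and the block, and 1 to 4 when each library was left out. The offsets also raised the calls over all 17592 genes tested, from 4494 to 6333, and to 5350 with the block. From 0 h to 48 h it was 4, 6 with the GC and length offsets, 6 with these and the block, and 2 to 5 when each library was left out. Over all 17755 genes tested, the calls rose from 5602 to 7595 with the offsets and to 6853 with these and the block. From 24 h to 48 h it was 0, but 2 with DESeq2, 1 with DESeq2's size factors, 1 with library size alone, 1 with no expression filter, 1 with at least 10 counts in every library, 2 with the GC and length offsets, 1 with these and the block, and 0 to 1 when each library was left out. Among the settings with all libraries named here, the calls over all genes ran from 2722 of 17499 (offsets and block) to 4543 of 32531 (no expression filter). Over all genes, 4494, 5602 and 3732 were called, and when each library was left out the counts ran from 2607 (without 24 h replicate 2) to 6023 (without 0 h replicate 3), from 3471 (without 48 h replicate 1) to 7116 (without 0 h replicate 1) and from 1857 (without 48 h replicate 1) to 4356 (without 48 h replicate 2). With all 9 libraries in 1 fit the last count was 1043. The cause of these differences was not tested.

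The data showed no sign that the replicate numbers pair the samples, but correlations over 3 libraries per time cannot exclude a pairing. Same-numbered libraries had correlations of their deviations from -0.31 to 0.205, with 2 of 9 over 0.1, and 3 of 18 correlated best with their own number. With the replicate block 3007, 4013 and 2497 genes were called, and 1, 3 and 0 of the 10 genes. Wiz at 24 h (log2 fold change 0.61, adjusted p = 0.092 with edgeR) and Kdm4c at 48 h (0.88, adjusted p = 0.0598) were not called with the block.

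The direction turned only for values near 0 that were not called in the comparison as reported or under the setting that turned them. From 0 h to 24 h, Suv39h1 was 0.053 with library size alone, 0.021 with the GC and length offsets and 0.022 with these and the block. From 0 h to 48 h, library size alone gave 0.090 for Suv39h1, 0.095 for Setdb1 and 0.028 for Kdm4a, and at least 10 counts in every library gave 0.0034 for Setdb1. The GC and length offsets gave 0.10 for Suv39h1, -0.064 for Suv39h2 and 0.064 for Kdm4a, and with the block 0.10, -0.066 and 0.064. From 24 h to 48 h, Wiz was 0.00046 with DESeq2, 0.0017 with its size factors, 0.0089 with at least 10 counts, 0.15 with the GC and length offsets and 0.15 with these and the block, and Suv39h2 was -0.094 and -0.096 with the offsets without and with the block. When each library was left out, Suv39h2 ran from -0.048 to 0.26 and Setdb1 from -0.0098 to 0.052 at 24 h, Suv39h1 from -0.054 to 0.042 and Setdb1 from -0.055 to 0.025 at 48 h, and Wiz from -0.14 to 0.057 and Setdb1 from -0.061 to 0.015 between 24 h and 48 h. The log2 ratio of Suv39h2 to Suv39h1 then ran from -0.038 to 0.35 at 24 h, from -0.027 to 0.37 at 48 h and from -0.018 to 0.051 between them, and that of Kdm4c to Kdm4a from -0.065 to 0.14 between 24 h and 48 h.

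At these depths each of the 10 genes had at least 160 counts per library, and the biological coefficient of variation over all genes was 0.22 and 0.228 in the comparisons with 0 h and 0.115 between 24 h and 48 h. With the longest transcript as gene length, 9, 8 and 9 of the 10 genes reached 10 FPKM at 0 h, 24 h and 48 h, against 7, 7 and 8 with all exons.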

Other observations

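The patterns most like those of Ehmt1 and Ehmt2 were sought among 16888 genes by Pearson's r of log2 CPM over the 9 libraries, as a description with no p, since the libraries fall into 3 times and share their depth and GC differences. For Ehmt1, the genes nearest in pattern were Polr1a (r = 0.985), Polr3a (r = 0.985) and Ptpn21 (r = 0.983). Polr1a and Polr3a encode the largest subunits of RNA polymerases I and III. Polr1a went from a mean of 76.7 CPM at 0 h to 121 and 166 CPM, and Polr3a from 86.7 to 134 and 164 CPM. For Ehmt2 they were Slc24a4 (r = 0.996), Kcns2 (r = 0.995) and Scap (r = 0.995). Scap, the escort protein of the sterol-sensing SREBP factors, went from 123 to 227 and 250 CPM, whereas Slc24a4 and Kcns2 stayed below 5 CPM on average at each time.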
